A study of Mus musculus with 19 samples.

Results

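Transcripts of 10 heat shock and chaperone genes were followed in blood leukocytes of DBA/2 and B6 mice given CAWS, the water-soluble fraction of Candida albicans, whose injection is used to induce coronary arteritis in mice. The genes are Hspa1a, Hspa1b, Hspa5, Hspa8, Hspa9, Hsph1, Hsp90b1, Dnajb1, Hspd1 and Hspe1. Members were all non-control array probes that carry one of these names in the scanner files, which gave 16 probes of 8 genes, out of 41174 probes and 27597 gene names on the array. Hspa1b and Hsph1 had no probe under their own name. Hsph1 was found through its transcript accession under its older name Hsp110, and its values are given separately from the counts over the 8 genes. The mice were males of both strains, each strain was sampled right after the last injection (0 w) and 2, 4, 8 and 9 weeks (w) later, and only mice that had survived to a given week were sampled. All groups had received CAWS, so that 0 w is not an untreated control. There were 10 DBA/2 samples, 2 at each time, and 8 B6 samples, 2 at each time except 2 w and 9 w with 1 each. By the study's methods each array was hybridized with RNA of a single mouse.

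Chaperones bind unfolded or partly folded proteins and help them reach or keep their folded state. Hspa1a and Hspa1b encode the stress-inducible Hsp70 proteins of the cytosol and are closely related copies in the major histocompatibility complex, and Hspa8 encodes Hsc70, the Hsp70 that cells make without stress. Dnajb1 encodes an Hsp40 co-chaperone that stimulates the ATPase of Hsp70, and Hsph1 encodes Hsp110, a nucleotide exchange factor of Hsp70. Hspa5 (BiP) and Hsp90b1 (Grp94) are the Hsp70 and the Hsp90 of the endoplasmic reticulum, whose transcription rises in the unfolded protein response. Hspa9 (mortalin), Hspd1 (Hsp60) and Hspe1 (Hsp10) act in the mitochondrial matrix, where Hspd1 and Hspe1 form the folding chamber and its lid. The stress response of the cytosol runs through heat shock factor 1, which binds inverted repeats of nGAAn, and that of the endoplasmic reticulum through an element named ERSE.

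Promoter sequences of RefSeq (GRCm38.p6), from 250 bases before to 50 bases after each start, were at hand for 8 of the 10 genes, all except Hspa8 and Hspa9. The stretches below are shown because they hold the 2 elements by which the genes of the cytosol and of the endoplasmic reticulum are usually told apart. Capitals mark GAANNTTC or TTCNNGAA, each its own reverse complement, in the first 3 sequences, and CCAAT and CCACG with 9 bases between them, on either strand, in the other two. All are written 5′ to 3′ on the strand of the gene and, except that of Hspe1 and Hspd1, end at the last base before the start.
Hspa1a, chr17:34972157-34972290, minus strand: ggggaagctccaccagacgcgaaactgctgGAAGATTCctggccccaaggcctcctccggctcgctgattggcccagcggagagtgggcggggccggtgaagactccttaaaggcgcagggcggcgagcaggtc
Hsph1, chr5:149636337-149636399, minus strand: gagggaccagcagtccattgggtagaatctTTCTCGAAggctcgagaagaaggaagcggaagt
Hspe1 and Hspd1, chr1:55088053-55088082, plus strand: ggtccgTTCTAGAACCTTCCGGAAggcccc
Hspa5, chr2:34771995-34772089, plus strand: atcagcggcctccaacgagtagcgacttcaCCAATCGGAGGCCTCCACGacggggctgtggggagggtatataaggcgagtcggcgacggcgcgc
Hsp90b1, chr10:86705445-86705686, minus strand: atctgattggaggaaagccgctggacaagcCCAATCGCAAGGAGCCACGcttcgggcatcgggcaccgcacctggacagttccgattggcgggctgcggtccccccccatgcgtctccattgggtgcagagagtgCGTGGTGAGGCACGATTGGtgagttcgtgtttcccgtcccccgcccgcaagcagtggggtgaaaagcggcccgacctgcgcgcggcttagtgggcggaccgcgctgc

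The heat shock element in this spelling was in the windows of 5 of the 8 genes, Hspa1a, Hspa1b, Hsph1, Hspd1 and Hspe1, against 15.1% of all 32851 promoters in the table. The same stretch of Hspa1b differed from that of Hspa1a at 1 of 134 bases. Hspe1 and Hspd1 are transcribed away from each other from a shared promoter, and the 3 overlapping matches shown are the same 3 positions in both genes. ERSE was in the windows of Hspa5 and Hsp90b1 alone, 2 of 8 genes, against 0.119% of all promoters. CCAAT by itself, which is part of ERSE, was in 7 of the 8 genes and in 37.4% of all promoters. Dnajb1 held no heat shock element in this spelling in either of its windows, which says only that these letters are not there.

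Each RNA was labelled with 1 dye and hybridized to an Agilent whole mouse genome array, and the values below are scaled signals, that is, processed signals in which every array was brought to the same 75th percentile (374.4). They compare samples for a given probe and not one probe with another. From 33.92% to 51.42% of the spots on an array were well above background. Replicates differed by a median of 0.0909 to 0.102 on the log2 scale in B6 mice and 0.122 to 0.151 in DBA/2 mice, while 2 arrays of the same B6 0 w RNA differed by 0.0985. The p-values measure the spread between these samples, which in B6 mice was about that between arrays of 1 RNA. Markers of leukocytes in general summed to scaled signals of 9780 to 14300 in all samples. Hepatocyte transcripts (9 of 10 markers found) summed to 16600 and 17100 in the B6 0 w samples and 8630 and 9110 in the B6 8 w samples, against 191 to 556 in all others. Where B6 0 w or B6 8 w enters a comparison below, the part of these transcripts in the result was not tested. With whole-blood leukocytes, a change in a transcript per cell and a change in the mix of cells cannot be told apart.

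**Figure D1:**
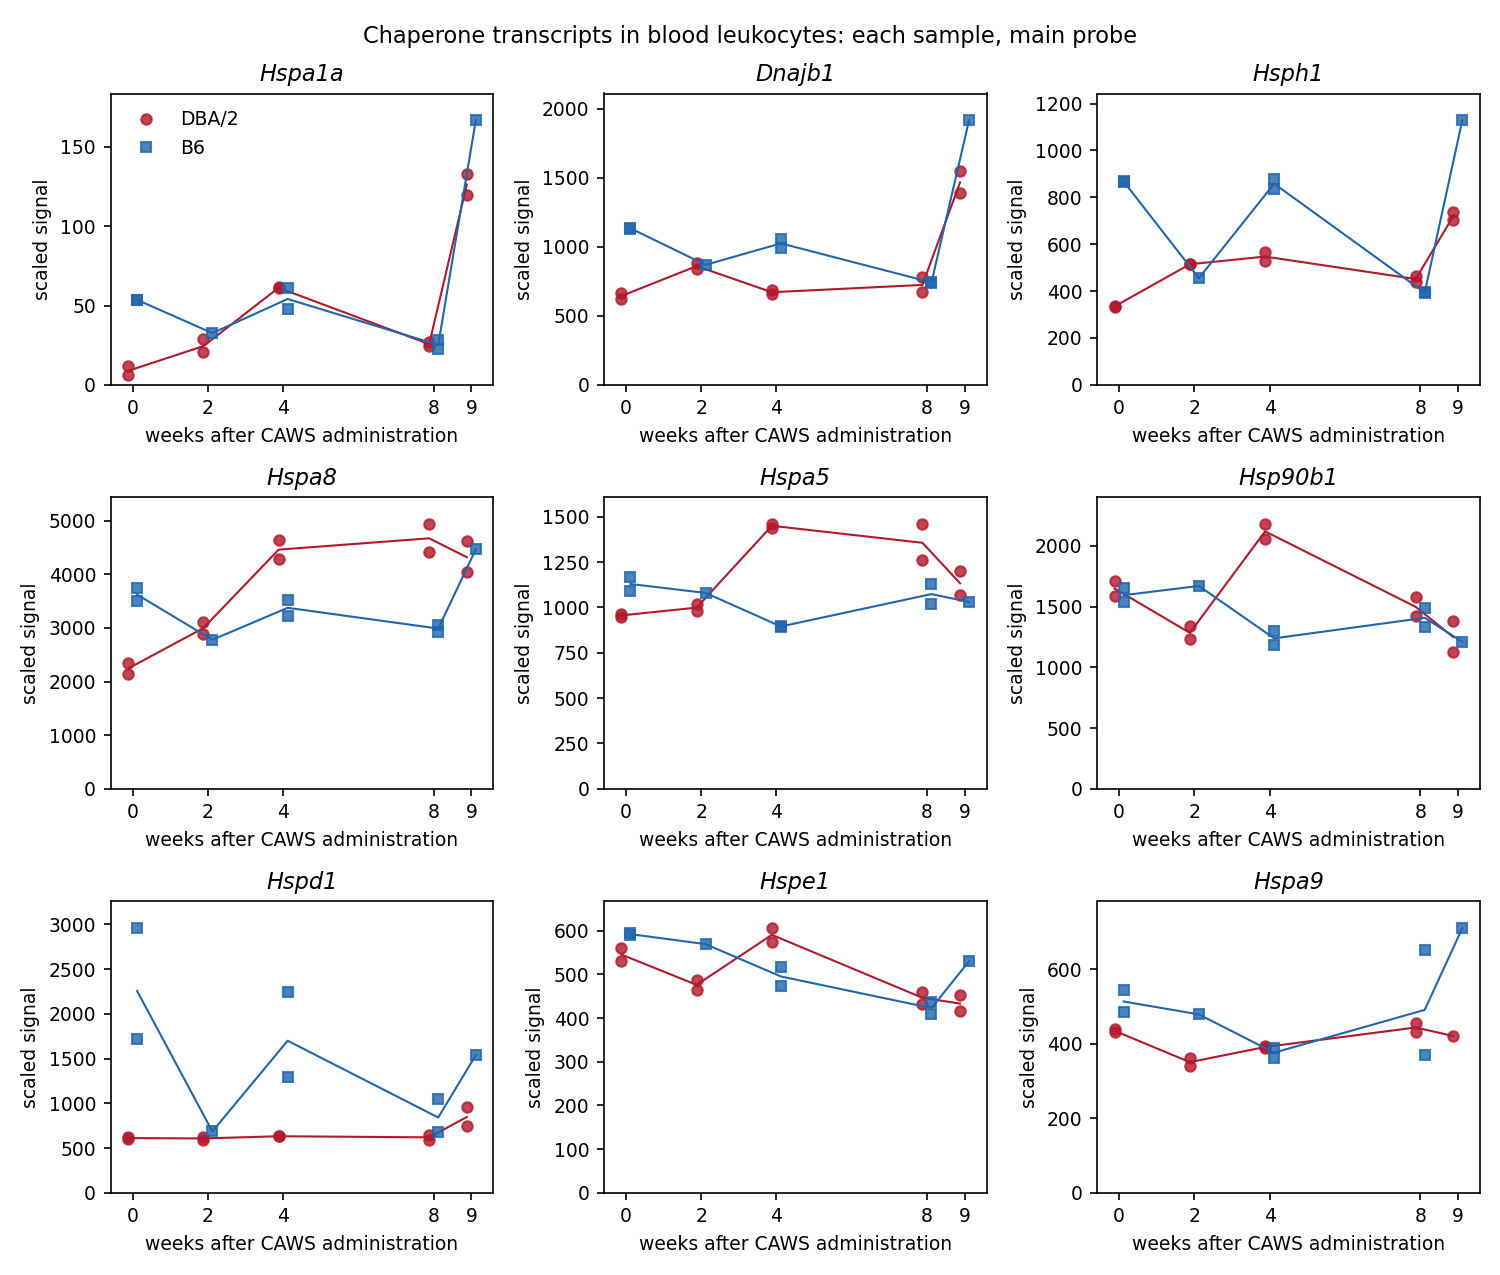
Scaled signal (linear axis from 0, a different range in each panel) of the main probe of each gene against weeks following CAWS administration. Each point is 1 sample, circles for DBA/2 and squares for B6, and lines join geometric means. Hspa1a, Dnajb1 and Hsph1 were highest at 9 w in both strains, whereas Hspa5 and Hsp90b1 were highest in DBA/2 mice at 4 w.

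Hspa1a was the member with the widest range. Its main probe lies in the mm8 build at chromosome 17, bases 34577877 to 34577936, and lists a transcript of Hspa1a and none of Hspa1b, although so close a pair may still share signal. The scaled signals of this probe in DBA/2 mice were 12.1 and 6.38 at 0 w, 20.4 and 29.2 at 2 w, 61.5 and 60.9 at 4 w, 24.5 and 26.9 at 8 w, and 133 and 120 at 9 w. In B6 mice they were 53.5 and 53.7 at 0 w, 32.6 at 2 w, 60.9 and 48.1 at 4 w, 28.0 and 22.6 at 8 w, and 167 at 9 w. In DBA/2 mice no later sample overlapped the 0 w pair, and in both strains the 9 w samples were above all others. The DBA/2 0 w samples were not well above background, so that the rises of this probe are lower bounds on its own scale. By the main probe the rise of Hspa1a in DBA/2 mice was at least 1.83-fold at 2 w (adjusted p = 0.0068), at least 4.59-fold at 4 w (adjusted p = 0.00017), at least 1.92-fold at 8 w (adjusted p = 0.0031) and at least 9.47-fold at 9 w (adjusted p = 2e-05). These bounds hold for the main processing alone. Under other settings the lowest log2 changes of this probe were 0.34 (2 w), 0.78 (4 w), 0.3 (8 w) and 1.89 (9 w). Its log2 change in B6 mice was -1.09 ± 0.28 (SE) at 8 w (adjusted p = 0.021) and, on 1 sample, 1.64 ± 0.34 at 9 w (3.13-fold, adjusted p = 0.016). The second probe of Hspa1a gave the same direction for each of these called changes, but in DBA/2 mice its folds lay below those bounds, at 1.47 (2 w), 3.77 (4 w), 1.69 (8 w) and 8.41 (9 w), all past the threshold (largest adjusted p = 0.036). This probe was well above background in DBA/2 0 w replicate 1. Its log2 changes at 9 w were 3.07 ± 0.15 in DBA/2 mice and 1.55 ± 0.19 in B6 mice. It differed from the main probe in that its fall in B6 mice at 2 w, by 1.05 ± 0.19, was past the threshold (adjusted p = 0.0045), where the main probe fell short (log2 change -0.72 ± 0.34, adjusted p = 0.23). The other 2 probes list transcripts of both Hspa1a and Hspa1b, and were well above background in 3 and in 0 of the 18 samples. The 3 samples in which the brighter of them was detected were DBA/2 8 w replicate 2 (14.7), DBA/2 9 w replicate 2 (23.5) and B6 9 w (26.8).

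Dnajb1 followed Hspa1a at 9 w but not at 4 w. Its main probe (chromosome 8, bases 86501866 to 86501925) read 665 and 623 in the DBA/2 0 w samples, 883 and 839 at 2 w, 659 and 684 at 4 w, 783 and 670 at 8 w, and 1550 and 1390 at 9 w. The B6 samples read 1140 and 1130 at 0 w, 870 at 2 w, 1060 and 992 at 4 w, 740 and 745 at 8 w, and 1920 at 9 w. The 9 w samples lay above all others in each strain, and the 0 w samples were low in DBA/2 mice and high in B6 mice. In DBA/2 mice Dnajb1 rose 1.34-fold at 2 w (adjusted p = 0.017) and 2.29-fold at 9 w (log2 change 1.19 ± 0.095, adjusted p = 3.3e-05). The B6 mice showed a log2 change of -0.61 ± 0.095 at 8 w (adjusted p = 0.0016) and a 1.69-fold rise at 9 w (adjusted p = 0.0036). The second probe of Dnajb1 was also past the threshold in DBA/2 mice at 4 w (log2 change 0.38 ± 0.11, adjusted p = 0.049) and 8 w (0.72 ± 0.11, adjusted p = 0.0013), where the main probe was not (adjusted p = 0.79 and 0.25).

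Hsph1, on the array as Hsp110 (chromosome 5, bases 149885230 to 149885289), had the closest replicates of the genes described. It read 331 and 338 in DBA/2 mice at 0 w, 515 and 514 at 2 w, 565 and 530 at 4 w, 463 and 440 at 8 w, and 736 and 704 at 9 w. The B6 values of Hsph1 were 871 and 865 at 0 w, 455 at 2 w, 880 and 837 at 4 w, 397 and 390 at 8 w, and 1130 at 9 w. In DBA/2 mice every later sample was above both 0 w samples, while in B6 mice the 2 w and 8 w samples were low and the 0 w and 4 w samples overlapped. Hsph1 rose in DBA/2 mice at all 4 times, by 1.54-fold (2 w) and 1.64-fold (4 w), then by 1.35-fold (8 w) and 2.15-fold (9 w), with adjusted p values of at most 0.0019. Among B6 mice its log2 change was -0.93 ± 0.087 at 2 w and -1.14 ± 0.071 at 8 w (adjusted p = 9.4e-05 and 6.8e-06), and 0.38 ± 0.087 at 9 w (adjusted p = 0.025).

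Because the B6 0 w samples held hepatocyte transcripts, B6 9 w was also compared with B6 4 w, both with low hepatocyte sums. Against 4 w, Hspa1a was 3.1-fold higher at 9 w (adjusted p = 0.024), Dnajb1 1.87-fold (adjusted p = 0.0036) and Hsph1 1.32-fold (adjusted p = 0.028). These 3 genes were higher in the lone B6 9 w sample than in either reference. The 4 w reference was chosen after seeing the data, and the part of hepatocyte transcripts was not tested.

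Hspa8, the constitutive Hsp70, rose in DBA/2 mice at every later time and stayed at about the same level from 4 w to 9 w. Its main probe (chromosome 9, bases 40555660 to 40555719) read 2150 and 2340 in DBA/2 mice at 0 w, 3120 and 2880 at 2 w, 4650 and 4280 at 4 w, 4940 and 4420 at 8 w, and 4620 and 4040 at 9 w. Its B6 values were 3740 and 3510 at 0 w, 2780 at 2 w, 3530 and 3230 at 4 w, 3060 and 2920 at 8 w, and 4470 at 9 w. The DBA/2 samples from 4 w onward were all at 4040 or above, and those at 0 w were the lowest of all 18 samples. Hspa8 rose in DBA/2 mice 1.34-fold at 2 w (adjusted p = 0.024), 1.99-fold at 4 w (log2 change 0.99 ± 0.10, adjusted p = 0.00025), 2.09-fold at 8 w (1.06 ± 0.10, adjusted p = 8.7e-05) and 1.93-fold at 9 w (0.95 ± 0.10, adjusted p = 0.0002). None of the changes of this probe in B6 mice passed the threshold, and their log2 values lay between -0.38 ± 0.13 at 2 w and 0.30 ± 0.13 at 9 w. The second probe gave log2 changes of 0.91 (4 w), 1.22 (8 w) and 1.11 (9 w) in DBA/2 mice, all past the threshold, but missed it at 2 w (0.24 ± 0.099, adjusted p = 0.15), and was past it in B6 mice at 9 w (0.55 ± 0.12, adjusted p = 0.021).

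Of the chaperones of the endoplasmic reticulum, Hspa5 rose in the DBA/2 samples of 4 w and 8 w, whereas at 4 w Hsp90b1 passed the threshold by its second probe alone. Hspa5 (chromosome 2, bases 34598119 to 34598178) read 950 and 962 in DBA/2 mice at 0 w, 1020 and 978 at 2 w, 1460 and 1440 at 4 w, 1460 and 1260 at 8 w, and 1200 and 1070 at 9 w. The B6 samples gave 1170 and 1090 at 0 w, 1080 at 2 w, 898 and 892 at 4 w, 1130 and 1020 at 8 w, and 1030 at 9 w. Both DBA/2 samples at 4 w and both at 8 w lay above all B6 samples, and the B6 4 w samples were the lowest of all 18. Hspa5 rose 1.52-fold in DBA/2 mice at 4 w (log2 change 0.60 ± 0.097, adjusted p = 0.0031) and 1.42-fold at 8 w (adjusted p = 0.0044). The fall of Hspa5 in B6 mice at 4 w (log2 change -0.34 ± 0.097, adjusted p = 0.043) was a call that was lost when either B6 4 w sample (adjusted p = 0.14 and 0.16) or either B6 0 w sample (adjusted p = 0.22 and 0.092) was left out and under quantile (adjusted p = 0.06) or median scaling (adjusted p = 0.097), and in 18 of 29 alternatives in all.

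Hsp90b1 is measured by 2 probes that ran together over the samples (Pearson r = 0.97 over 18 samples, as a description). The main probe (chromosome 10, bases 86120824 to 86120883) read 1710 and 1590 in DBA/2 mice at 0 w, 1340 and 1230 at 2 w, 2180 and 2060 at 4 w, 1580 and 1420 at 8 w, and 1380 and 1130 at 9 w. The B6 values of this probe were 1650 and 1540 at 0 w, 1670 at 2 w, 1300 and 1180 at 4 w, 1490 and 1330 at 8 w, and 1210 at 9 w. The DBA/2 4 w samples were the highest of all, and the B6 4 w samples were both below the B6 0 w pair. The main probe missed the threshold at 4 w in DBA/2 mice (log2 change 0.36 ± 0.12, adjusted p = 0.073) and in B6 mice (-0.37 ± 0.12, adjusted p = 0.069), and its only call against 0 w was a fall by 0.40 ± 0.12 in DBA/2 mice at 9 w (adjusted p = 0.032). The second probe, with a smaller spread, passed it at 4 w in both, with log2 changes of 0.51 ± 0.099 in DBA/2 mice (adjusted p = 0.0079) and -0.52 ± 0.099 in B6 mice (adjusted p = 0.0078). It also fell in DBA/2 mice at 2 w (log2 change -0.41 ± 0.099, adjusted p = 0.021).

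By main probe, every called change of the mitochondrial chaperones against 0 w was a fall, and Hspa9 had none. The second probe of Hspd1, however, rose in DBA/2 mice. Hspd1 was measured by 2 probes that disagreed in size. The main probe (chromosome 1, bases 55022530 to 55022589) stayed between 595 and 645 in the 8 DBA/2 samples up to 8 w, and read 748 and 960 at 9 w. The B6 samples spread widely, with 1720 and 2960 at 0 w, 686 at 2 w, 1290 and 2240 at 4 w, 675 and 1050 at 8 w, and 1540 at 9 w. In each of the 3 B6 groups with replicates, replicate 2 was 1.55 to 1.74 times replicate 1 by the main probe. By the second probe the same ratios were 0.883 to 1.06, and its scaled signals spanned 82.8 to 137 over all 18 samples. It showed in B6 mice smaller falls, with log2 changes of -0.56 ± 0.12 (2 w), -0.41 ± 0.10 (4 w) and -0.58 ± 0.10 (8 w; largest adjusted p = 0.023) against -1.72 ± 0.39, -0.41 ± 0.32 and -1.42 ± 0.32 by the main probe (adjusted p = 0.017, 0.48 and 0.011). The second probe rose in DBA/2 mice, with log2 changes of 0.34 ± 0.10 at 4 w and 0.44 ± 0.10 at 9 w (adjusted p = 0.049 and 0.01), and the main probe passed the threshold at neither (adjusted p = 0.96 and 0.32).

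Hspe1, the partner of Hspd1, moved little. Its probe (chromosome 1, bases 55035623 to 55035682) lay between 410 and 606 in all samples, with the lowest values at 8 w in B6 mice (436 and 410) and at 8 w and 9 w in DBA/2 mice (415 to 460). Its log2 change was -0.29 ± 0.084 in DBA/2 8 w (adjusted p = 0.033), -0.33 ± 0.084 in DBA/2 9 w (adjusted p = 0.016) and -0.49 ± 0.084 in B6 8 w (adjusted p = 0.0029). Hspa9 (chromosome 18) passed the threshold in none of the 13 comparisons by either probe. Its main probe ranged from 340 to 711, and its value in DBA/2 9 w replicate 2 was missing because the spot was marked as an outlier, as were 1187 spots on that array against 64 to 180 on the others. The 9 w value of Hspa9 in DBA/2 mice therefore rests on 1 sample (421).

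**Figure D2:**
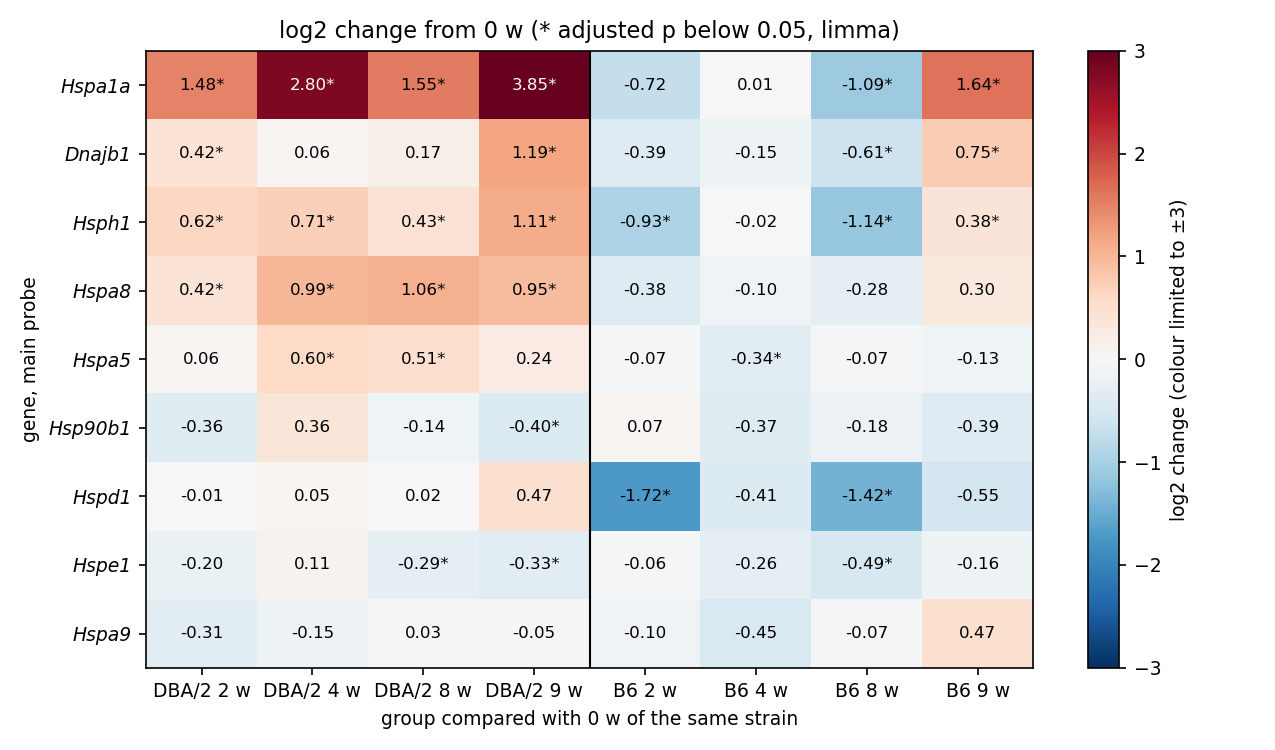
Log2 change from 0 w of the same strain for the main probe of each gene, by strain and week, with an asterisk where the adjusted p was below 0.05. The left 4 columns (DBA/2) hold rises of Hspa1a, Hsph1 and Hspa8 at every time, and the right 4 columns (B6) hold rises at 9 w alone, of Hspa1a, Dnajb1 and Hsph1.

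Counted over the 8 genes by main probe, 3 rose in DBA/2 mice at 2 w (Hspa1a, Hspa8, Dnajb1), against 15.7% of all tested probes called in that comparison. At 4 w 3 rose (Hspa1a, Hspa5, Hspa8; background 14.8%), at 8 w the same 3 genes rose and Hspe1 fell (24.0%), and at 9 w Hspa1a, Hspa8 and Dnajb1 rose and Hsp90b1 and Hspe1 fell (27.7%). In B6 mice Hspd1 alone fell at 2 w (13.0%) and Hspa5 alone fell at 4 w (15.7%). At 8 w in B6 mice 4 fell, Hspa1a, Dnajb1, Hspd1 and Hspe1 (21.2%), and at 9 w 2 rose, Hspa1a and Dnajb1 (9.34%). The share of the 8 genes called was near the background in B6 mice at 2 w and 4 w, where it rests on a single gene. The changes within a strain share its 0 w samples.

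The strains already differed at 0 w. At that time the DBA/2 samples were lower in 4 of the 8 genes (32.7% of all tested probes were called in either direction). Hspa1a was at least 4.02-fold lower in DBA/2 mice by the main probe (adjusted p = 9.2e-05) and 3.67-fold lower by the second (adjusted p = 1.6e-05), Hspa8 1.62-fold lower (adjusted p = 0.0008), Dnajb1 1.77-fold lower (adjusted p = 0.00016) and Hspd1 3.68-fold lower by the main probe (adjusted p = 0.0015). The second probe of Hspd1 put the difference at 0.55 ± 0.10 on the log2 scale, also lower in DBA/2 mice (adjusted p = 0.0025). Hsph1 was 2.60-fold lower (adjusted p = 9.1e-07).

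At 4 w the order had changed for part of the genes. Hspa5 was 1.62-fold higher in DBA/2 than in B6 mice (adjusted p = 0.00046), Hsp90b1 1.71-fold (adjusted p = 0.0008), Hspa8 1.32-fold (adjusted p = 0.016) and Hspe1 1.19-fold (adjusted p = 0.044), while Dnajb1 was 1.53-fold lower (adjusted p = 0.00095) and Hspd1 2.69-fold lower by its main probe (adjusted p = 0.0071), so that 4 genes were higher and 2 lower (background 32.1%). The call for Hspe1 was lost in 19 of 27 alternatives (highest adjusted p = 0.24). For Hspd1 the second probe pointed the other way (0.21 ± 0.10, adjusted p = 0.16). At 8 w Hspa8 was 1.56-fold (adjusted p = 0.0015) and Hspa5 1.26-fold (adjusted p = 0.03) higher in DBA/2 mice (2 of 8, near the background of 25.4%). In 4 of 27 alternatives the call for Hspa5 at 8 w was lost. The Hspa1a levels of the strains met at both times, with mean scaled signals of 61.2 and 54.1 at 4 w and 25.6 and 25.1 at 8 w (log2 differences 0.18 ± 0.28, adjusted p = 0.69, and 0.03 ± 0.28, adjusted p = 0.96). Hsph1 was 1.57-fold lower in DBA/2 mice at 4 w (adjusted p = 9.9e-05) and stood at 451 against 394 at 8 w (adjusted p = 0.073).

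**Figure D3:**
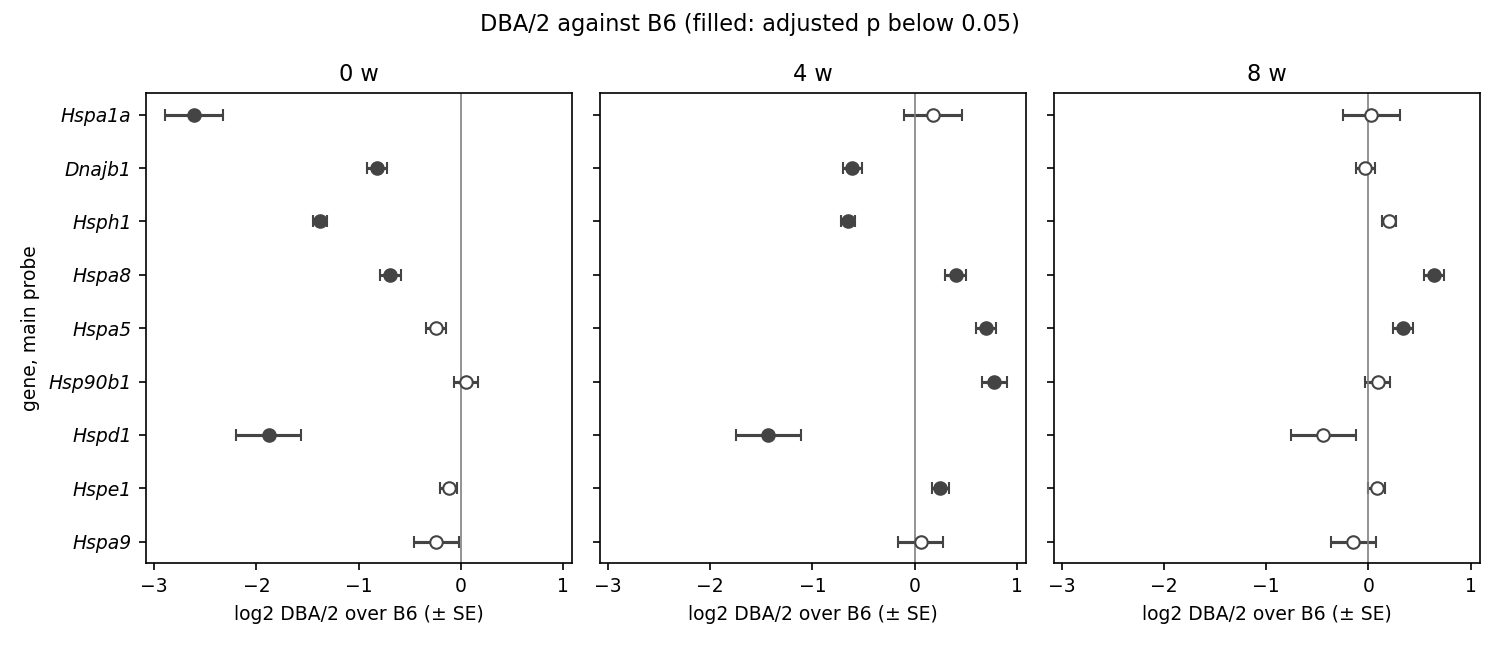
Log2 ratio of DBA/2 over B6 for the main probe of each gene at 0 w, 4 w and 8 w, with the standard error of the fit, filled where the adjusted p was below 0.05. The filled points at 0 w are Hspa1a, Dnajb1, Hsph1, Hspa8 and Hspd1, all to the left of 0. At 4 w the filled points of Hspa8, Hspa5, Hsp90b1 and Hspe1 lie to its right and those of Dnajb1, Hsph1 and Hspd1 to its left. At 8 w the only filled points are Hspa8 and Hspa5.

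The difference between the strains in the change from 0 w was tested directly. From 0 w to 4 w, 4 of the 8 genes had a more positive change in DBA/2 mice (11.9% of all tested probes were called), namely Hspa1a, Hspa5, Hspa8 and Hsp90b1. From 0 w to 8 w the 4 were Hspa1a, Hspa5, Hspa8 and Dnajb1 (17.5%). Among the called differences of the 8 genes by main probe, the largest that rests on detected signals was that of Hspa8 at 8 w, 1.34 ± 0.15 on the log2 scale (adjusted p = 0.00042). Hsph1, outside the 8, differed by 1.57 ± 0.10 at that time (adjusted p = 3.1e-05). For Hspa1a (2.79 ± 0.39 at 4 w and 2.64 ± 0.39 at 8 w) the fitted values include the undetected DBA/2 0 w samples and are no bounds. For Hspa1a, Dnajb1 and Hsph1 the DBA/2 samples did not exceed the B6 samples by a called margin at 4 w or 8 w on the main probe. Their called differences in change sit beside low DBA/2 values at 0 w and, at 8 w, called falls of these genes in B6 mice. Dnajb1 had no called rise in DBA/2 mice at 8 w by this probe. The part of each in the differences was not tested. The second probe of Dnajb1 was higher in DBA/2 mice at 8 w, by 0.41 ± 0.11 (adjusted p = 0.022). For Hspa5, Hspa8 and Hsp90b1 (the last at 4 w) the DBA/2 samples lay above the B6 samples at the later time. After normexp background correction of the raw pixels these 8 calls were lost, with their directions kept, and the share of all tested probes called then was 0.48% and 0.549%.

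The arrays sat on 6 slides. DBA/2 mice of weeks 2, 4 and 8 shared a slide with DBA/2 0 w for each replicate number, so that these changes could be read within slides. Of the 29 values that the slides allow for called changes of the 8 genes by main probe, in both strains, 29 had the direction of the fit. They come from the same arrays that gave the calls, so that this count is a description and no separate test. Hspa8 differed between DBA/2 8 w and 0 w by 1.20 and 0.92 on the log2 scale on the 2 slides, and Hspa5 between 4 w and 0 w by 0.62 and 0.58. Hspa1a differed between DBA/2 4 w and 0 w by 2.35 and 3.26. With the slide as a random block the DBA/2 2 w calls were 3 rises and 2 falls, the falls being Hsp90b1 and Hspe1. DBA/2 9 w shared no slide with DBA/2 0 w, so that slide and week cannot be told apart for the rises of Hspa1a, Dnajb1, Hsph1 and Hspa8 there. In B6 mice 9 w and 0 w shared a slide, on which Hspa1a was 1.65, Dnajb1 0.81 and Hsph1 0.45 higher at 9 w. DBA/2 and B6 mice shared no slide at 0 w, 4 w or 8 w, so that slide and strain cannot be told apart in the levels compared there. With the slide as a random block 4, 6 and 2 of the 8 genes differed between the strains at these times.

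Other chaperone genes were read from lists of related genes, 1 probe per gene. Of 29 heat shock and co-chaperone genes, mainly of the cytosol, 7 rose and 3 fell in DBA/2 mice at 9 w. The median log2 change of the 29 was 0.19, where the median of all tested probes was -0.03. Of the list 34.5% were called, against 27.7% of all tested probes. Dnaja1, an Hsp40 co-chaperone, rose most, 2.25-fold (adjusted p = 2.4e-05), and Dnajc7 fell most, by 0.56 ± 0.10. Dnaja1 was also the only gene of the list that rose in B6 mice at 9 w (1.74-fold, adjusted p = 0.0016), when 2 fell and the median was -0.05 (10.3% called, near the background of 9.34%). At 8 w in B6 mice 1 rose and 11 fell (41.4% against 21.2%), with a median of -0.26 against -0.04 for all probes, and among those that fell were Hsp90aa1 and Hsp90ab1, which encode the Hsp90 proteins of the cytosol, and Stip1, which links Hsp70 to Hsp90. At 0 w 13 of the 29 were lower and 1 higher in DBA/2 than in B6 mice (48.3% against 32.7%). From 0 w to 8 w the change was more positive in DBA/2 mice for 12 and in B6 mice for 2 (48.3% against 17.5%). Hsp90ab1 differed by 0.86 ± 0.15 (adjusted p = 0.0047) and Dnaja1 by 1.47 ± 0.12 (adjusted p = 0.00012).

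Of 26 genes of the endoplasmic reticulum and its unfolded protein response, 19 were higher and 1 lower in DBA/2 than in B6 mice at 4 w, with a median log2 difference of 0.54 against 0.06 for all tested probes (76.9% called, background 32.1%). At 0 w 4 were higher and 4 lower (30.8%, near the background of 32.7%), and at 8 w 3 were lower (11.5%, below the background of 25.4%). In DBA/2 mice 6 of them rose and 1 fell from 0 w to 4 w (26.9% against 14.8%), in B6 mice 1 rose and 12 fell (13 of 26, background 15.7%). Sdf2l1, a partner of Hspa5, rose 1.89-fold in DBA/2 mice (adjusted p = 0.0012) and fell by 0.73 ± 0.13 in B6 mice (adjusted p = 0.0045). Xbp1, a transcription factor of the unfolded protein response that is also high in plasma cells, rose 1.70-fold in DBA/2 mice at 4 w (adjusted p = 0.00079). It rose more at 8 w, 2.22-fold in DBA/2 and 1.86-fold in B6 mice (adjusted p = 3.4e-05 and 0.00019), and 1.94-fold in DBA/2 mice at 9 w (adjusted p = 0.00013). Hyou1, an Hsp110 relative of this compartment, was 2.36-fold higher in DBA/2 than in B6 mice at 4 w (adjusted p = 6.3e-05). The probe of Ddit3 (CHOP), a factor induced by lasting stress of this compartment, changed by 0.09 ± 0.29 in DBA/2 mice at 4 w (adjusted p = 0.92). Plasma cell markers (8 of 8 found) summed to 662 to 715 in DBA/2 mice and 363 to 376 in B6 mice at 4 w, and to 1050 to 1110 and 487 to 503 at 0 w. The part of plasma cells in the strain difference was not tested.

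Of 12 mitochondrial chaperones and proteases, 4 or 5 fell and 1 rose in DBA/2 mice at each later time (5 or 6 of 12 called, against 14.8% to 27.7% of all tested probes), and 7 fell in B6 mice at 4 w (58.3% against 15.7%). Lonp1, a matrix protease, fell by 0.60 ± 0.074 in DBA/2 mice at 2 w (adjusted p = 0.00089). Of 13 subunits of the cytosolic chaperonin TRiC and of prefoldin, at most 4 were called in any comparison of a week with 0 w (30.8% against 21.2% in B6 mice at 8 w), and 6 were lower in DBA/2 than in B6 mice at 0 w (46.2% against 32.7%).

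**Figure D4:**
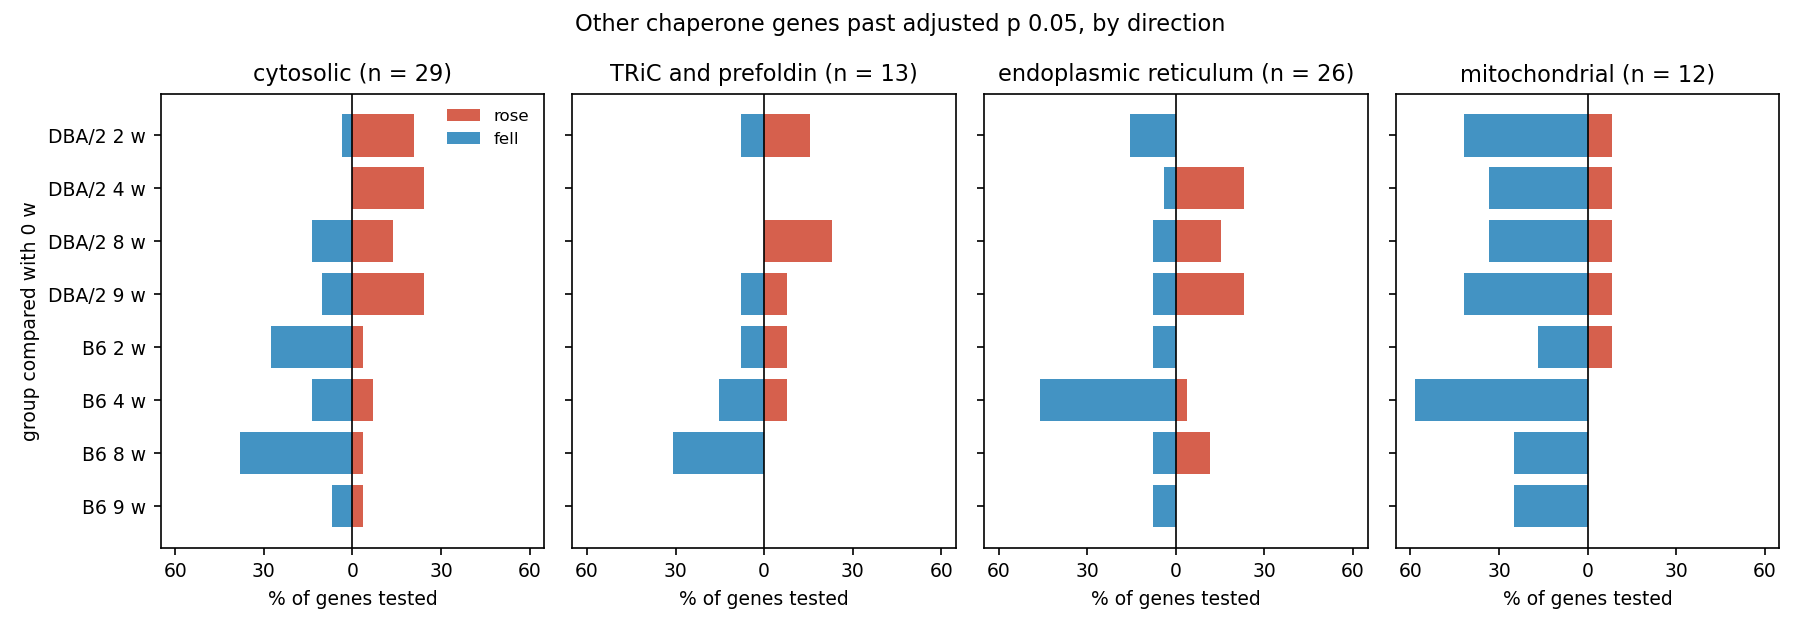
Share of the tested genes of 4 chaperone lists that rose (right of 0) or fell (left of 0) with an adjusted p below 0.05 against 0 w, for each strain and week. The list of the endoplasmic reticulum has rises in DBA/2 mice and mainly falls in B6 mice at 4 w, and the list of the cytosol has mainly falls in B6 mice at 8 w.

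Transcripts of other kinds moved at the same times. Of 10 immediate early genes, which respond within minutes to activation or handling of cells, 9 rose in DBA/2 mice and 7 in B6 mice at 4 w (backgrounds 14.8% and 15.7%). At 8 w, 8 and 7 rose, with 1 falling in DBA/2 mice (backgrounds 24.0% and 21.2%). At 9 w, 8 and 5 rose (backgrounds 27.7% and 9.34%). At 2 w, 5 and 4 rose, with 1 falling in DBA/2 mice (backgrounds 15.7% and 13.0%). Fos rose 10.2-fold in DBA/2 mice and 10.5-fold in B6 mice at 4 w. Neutrophil markers (8 of 9 found) summed to 39700 to 40000 in DBA/2 mice at 0 w, 125000 to 134000 at 4 w, 263000 to 292000 at 8 w and 98500 to 121000 at 9 w, and to 21300, 52300 to 56000, 160000 to 161000 and 83500 in B6 mice. Monocyte and macrophage markers (6 of 7 found) summed in DBA/2 mice to 559 to 573 at 0 w and 1570 to 1630 at 4 w. At 8 w and 9 w they summed to 1950 to 2040 and to 1480. In B6 mice the sums at these times were 745 to 786, 538 to 557, 1380 to 1410 and 1300. Erythroid markers (6) summed to 1290000 to 1360000 in DBA/2 mice at 0 w and 1730000 to 1980000 at 9 w, when all 6 rose, and to 2400000 to 2460000 in B6 mice at 0 w and 1110000 to 1150000 at 8 w, when all 6 fell. At 0 w and again at 4 w all 6 were lower in DBA/2 than in B6 mice. Platelet markers (5) summed to 93700 to 102000 in DBA/2 mice at 0 w, 137000 to 146000 at 2 w and 137000 to 148000 at 9 w, all 5 rising at both times, while in B6 mice all 5 fell from 0 w (115000 to 119000) to the single 2 w sample (43200). The parts of activation, handling and the mix of cells in the chaperone changes were not tested.

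Among probes well above background on all arrays, the 5 named genes whose values over the 18 samples ran closest to the main probe of Hspa1a were Dnaja1 (Pearson r = 0.859), Amz1 (0.832), Ube2l6 (0.795), Csrnp1 (0.788) and Per1 (0.786). Those closest to Hspa5 were Morf4l2 (0.901), Stard3 (0.893), Parp14 (0.888), Id2 (0.887) and Naa60 (0.885). Among the members, Hspa1a correlated with Hsph1 (0.83), Dnajb1 (0.80) and Hspa8 (0.71) and little with Hspa5 (0.21). Hspa5 correlated with Hspa8 (0.70) and Hsp90b1 (0.64), so that Hspa8 ran with both. These values describe samples that share groups, slides and scaling.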

How the data were processed

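The authors isolated leukocyte RNA from whole blood with LeukoLOCK, labelled it with Cy3, hybridized it to Agilent G4122F arrays and extracted the images with Feature Extraction (9.5.3.1 in the submitters' processing notes). The deposited processed signal is an intensity with background subtracted and spatial trends removed, not normalized between arrays, and a deposited value table holds the same intensity averaged per probe. Outlier and control spots were left out here, log2 was taken, spots of a probe were averaged, and the 75th percentile of each array was subtracted, taken over the 11536 probes that passed the scanner's test of being well above background on all 19 arrays. The 2 arrays of B6 0 w replicate 2 were averaged. The model of 10 group means (lmFit and eBayes of limma 3.58.1, R 4.3.3) was run on 22939 probes, those that passed this test in 2 or more of the 18 samples, and p-values were adjusted by Benjamini-Hochberg with a threshold of 0.05. The fit was tested on simulated data.

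A gene's main probe is the tested probe with the highest mean log2 signal over the samples. A fold is written "at least" where no array of the dimmer group detected the probe. It then sets the mean of the brighter group against a floor, for each replicate of the dimmer group either the lowest detected signal on the array or the value of the probe, whichever is higher. Such a bound holds for the main processing and not for the alternatives. Of the related lists, counts are given with the called genes of largest rise and fall. Other genes of these lists (Hsp90aa1, Hsp90ab1, Stip1, Ddit3, Xbp1, Hyou1) were named after their values were seen. The members and lists were chosen with earlier results of these data known. Probes were named through a RefSeq table of GRCm38.p6 (24367 by accession, 6307 by gene name, 2425 by synonym, 8075 with the name in the files), and the files give probe positions on mm8. The number of arrays limits the precision. Alternatives were normexp background correction (offset 50), quantile and median scaling, the value table, no filter, other probes, a block for the replicate number, a block for the slide, each replicate left out, either array of B6 0 w replicate 2 alone, and, chosen after seeing the data, each strain alone and B6 4 w as the reference. Tables and figures were made with Python 3.11.15, pandas 2.3.3, numpy 2.4.6 and matplotlib 3.10.9.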

Additional observations from a re-analysis of the deposited data

Results flagged for a closer look

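The change from 0 w differed between the strains, by the test of the difference itself, for 4 of the 8 genes at each of 4 w and 8 w. Hsph1, outside the 8, differed at both times, and all these differences were toward DBA/2 mice. Of all tested probes 11.9% were called at 4 w and 17.5% at 8 w. From 0 w to 4 w the log2 differences were 2.79 for Hspa1a (adjusted p = 0.0017), 1.09 for Hspa8 (adjusted p = 0.0013), 0.94 for Hspa5 (adjusted p = 0.002), 0.73 for Hsp90b1 (adjusted p = 0.021) and 0.73 for Hsph1 (adjusted p = 0.0015). From 0 w to 8 w they were 2.64 for Hspa1a (adjusted p = 0.0019), 1.57 for Hsph1 (adjusted p = 3.1e-05), 1.34 for Hspa8 (adjusted p = 0.00042), 0.79 for Dnajb1 (adjusted p = 0.0039) and 0.58 for Hspa5 (adjusted p = 0.018). The Hspa1a values include the undetected DBA/2 0 w samples and are no bounds. After normexp background correction the calls of the 8 genes were lost at both times. Hepatocyte markers summed to 16600 or more in the B6 0 w samples that enter all of these values, and their part was not tested.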

How the results depend on the processing

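Of 54 called changes of single genes (Hsph1 included), 15 kept direction and call under every alternative, and of 1563 values under alternatives 1417 kept both, 144 lost the call and 2 turned direction: Hspa1a in DBA/2 mice at 2 w by probe A_52_P52803 (-0.46, dim in all samples compared) and Hspd1 between the strains at 4 w by probe A_52_P1172972 (0.21). Normexp background correction kept all 54 directions but only 17 calls. It left 85 to 2811 probes of the whole array past the threshold, against 2141 to 7495, and changed the counts of the 8 genes to 0 from 3 in DBA/2 mice at 2 w, to 1 from 3 at 4 w, to 1 from 4 at 8 w, in B6 mice to 0 at every later week (from 1 each at 2 w and 4 w, from 4 at 8 w and from 2 at 9 w), between the strains to 2 from 6 at 4 w and 0 from 2 at 8 w, and in the strain differences to 0 from 4 at both times. The cause was not tested. Without the filter on dim probes the counts were 1 in DBA/2 mice at 2 w, 3 at 9 w (from 5), 0 in B6 mice at 4 w and 1 between the strains at 8 w. The B6 4 w count was also 0 under quantile and median scaling and with B6 samples alone, which also gave 0 at B6 2 w, and DBA/2 samples alone gave 1 at DBA/2 2 w. With array 1 of B6 0 w replicate 2 alone the B6 2 w count was 2. By the other probe of each gene it was 6 for DBA/2 4 w, 2 for B6 2 w, 3 for B6 4 w and 4 for B6 9 w. With the slide as a fixed block it was 6 for DBA/2 2 w (3 rose, 3 fell), 5 for B6 4 w and 4 for B6 9 w, and with the slide as a random block 5 for DBA/2 2 w, 3 for B6 2 w, 3 for B6 4 w and 4 for B6 9 w.

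Replicate numbers did not meet the rule for pairing, a correlation over 0.1 in every pair: deviations of same-numbered samples correlated between -0.0109 and 0.455 over 28 pairs of groups (median 0.0795, 12 over 0.1). In DBA/2 mice from 0 w to 8 w the number also marks the slide (correlation of the slide block 0.458). With the replicate block the counts were 5 in DBA/2 mice at 2 w (3 rose, 2 fell) and 3 in B6 mice at both 2 w and 4 w, and moved by less than 1.5 times elsewhere.

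Leaving out each sample in turn gave 0 to 4 genes in DBA/2 mice at 2 w, 3 to 4 at 4 w and 8 w, 3 to 5 at 9 w, in B6 mice 0 to 2 at 2 w and 4 w, 2 to 4 at 8 w and 1 to 3 at 9 w, between the strains 4 at 0 w, 3 to 6 at 4 w and 1 to 3 at 8 w, and in the strain differences 3 to 4 and 3 to 5. The DBA/2 2 w count fell to 1 without DBA/2 2 w replicate 1 or DBA/2 0 w replicate 2 and to 0 without DBA/2 2 w replicate 2, and the DBA/2 9 w count to 3 without DBA/2 0 w replicate 1 or DBA/2 9 w replicate 2. The B6 2 w count fell to 0 without B6 0 w replicate 2 and was 2 without either DBA/2 8 w replicate. The B6 4 w count fell to 0 without any 1 of the B6 0 w, B6 4 w, DBA/2 0 w, 2 w or 4 w samples and was 2 without either DBA/2 9 w sample. The B6 8 w count fell to 2 without B6 0 w replicate 2, and the B6 9 w count to 1 without either B6 0 w replicate. Between the strains it fell to 3 at 4 w without B6 4 w replicate 2, and to 1 at 8 w without DBA/2 8 w replicate 1 or B6 8 w replicate 2. Leaving out 1 of 2 replicates assumes that the lone sample varies like the other groups.

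Another scaling moved the share of rises among all called probes by over 10 percentage points. Median scaling gave 66.2% against 50.3% in DBA/2 mice at 2 w, 54.2% against 41.8% at 8 w and 49.9% against 38.4% in B6 mice at 4 w, and quantile scaling 53.7% at DBA/2 8 w, 49.2% at B6 4 w and 52.3% against 40.9% between the strains at 8 w. Normexp gave 86.4% at DBA/2 2 w, 88.8% against 51.1% at 4 w, 76.1% at 8 w and 85.8% against 48.3% at 9 w, 10.8% against 40.6% at B6 2 w, 29.0% against 52.7% and 34.7% against 59.4% between the strains at 0 w and 4 w, and 88.2% against 62.3% and 74.6% against 41.1% in the strain differences. The dim signal of the main probe of Hspa1a at DBA/2 0 w limits the folds of that probe to bounds, which hold for the main processing alone.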
